A study of Mus musculus with 52 samples.

Results

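Endothelial cells line every blood vessel, and in brown adipose tissue (BAT), the fat that burns lipid to make heat, they form a dense capillary bed that carries oxygen and fuel to the fat cells. The genes described here are 36 genes that such cells are known for, taken as a list by name: adhesion and junction proteins, receptors for VEGF, angiopoietin and TGF-beta ligands, SOX and ETS transcription factors, the Notch pathway, G protein and guidance receptors, and secreted or matrix proteins. All 36 were found among 21631 protein-coding loci. A locus was the gene body with 10 kb added on each side, in mouse genome build GRCm38.p6. The 36 loci span 2.588 Mb, which is 0.202% of the bases of all loci, and 22 of them overlap the locus of a neighbouring gene, so that a peak can count for both.

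As background, the VEGF receptors and the angiopoietin receptor Tek start vessel growth and keep vessels stable, ETS factors such as Erg and SOX factors such as Sox17 switch on endothelial genes, and cadherins and claudins seal the cell junctions. PPARG directs the formation of fat cells and is also made by endothelial cells, where it takes part in lipid uptake. PPARA, PGC1A and ERR1 drive lipid burning, CEBPA and CEBPB work with PPARG in fat cells, and H3K27ac is a histone mark of active promoters and enhancers.

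The files were peak lists of 35 mouse BAT libraries from chromatin immunoprecipitation with sequencing (ChIP-seq), each from room temperature (RT) or 4 h of cold. The PPARG and ERR1 libraries were from wild-type (WT) mice, with PPARG at n = 3 per temperature and ERR1 at 1 library per temperature. Tagged knock-in (KI) mice gave PPARA (HA-PPARA KI, RT n = 2, cold n = 3), PGC1A (PGC1A-HIsHA KI, cold n = 3), CEBPA (HA-CEBPA KI, RT n = 3) and CEBPB (HA-CEBPB KI, cold n = 2). The genotype label of the third PGC1A library was HA-CEBPA KI, and this library was grouped by its title. H3K27ac libraries came from WT mice (n = 3 per temperature), and from TXNIP WT and TXNIP KO mice (n = 2 per genotype and temperature), Txnip being the gene of a protein that restrains glucose uptake. The labels used here give neither age and sex nor the cells in which Txnip was deleted, and whether each replicate was its own animal is not stated, so p-values cover only differences among these samples and can be technical.

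Lists held 2347 to 60204 peaks. PPARG lists covered 31.3 to 39.3 Mb at RT and 23.8 to 29.5 Mb in cold, PPARA lists 13.7 to 16.1 Mb at RT and 3.32 to 5.72 Mb in cold. H3K27ac lists covered 56.6 to 70.3 Mb in the WT cohort and 73.2 to 108.1 Mb in the TXNIP mice. Because totals moved with temperature, tests used lengths scaled to a common library total, and values per library below are the unscaled kilobases (kb) of the locus that peaks covered.

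Start regions of 4 members whose loci changed in cold for PPARG are shown here from RefSeq (GRCm38.p6). They run from 250 bases before to 50 bases after the listed start, read 5′ to 3′ on the gene's strand. Peak lists do not place a change at single bases. Tek (chr4:94739039-94739338, plus strand) and Adcy4 (chr14:55784023-55784322, minus strand) were under a PPARG peak in 0 of 3 RT and 3 of 3 cold lists. For Adcy4 this holds for the window alone. The 1 site of its locus in all cold and no RT lists lies further upstream. RT replicate 2 had 0.463 kb of PPARG peaks at that locus. The window of Apln (chrX:48034804-48035103, minus strand) was under one in 3 RT lists and 1 cold list. That of Kdr (chr5:75978406-75978705, minus strand) was covered in all 6, by peaks that were wider in cold. Capitals mark a match to the ETS motif CCGGAA on either strand, found in Kdr only among these 4.
Tek: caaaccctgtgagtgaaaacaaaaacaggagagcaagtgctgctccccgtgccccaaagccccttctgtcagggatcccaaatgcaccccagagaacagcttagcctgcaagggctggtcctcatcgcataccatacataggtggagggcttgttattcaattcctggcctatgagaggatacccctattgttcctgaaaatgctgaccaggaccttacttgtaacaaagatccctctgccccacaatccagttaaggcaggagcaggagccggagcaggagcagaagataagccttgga
Adcy4: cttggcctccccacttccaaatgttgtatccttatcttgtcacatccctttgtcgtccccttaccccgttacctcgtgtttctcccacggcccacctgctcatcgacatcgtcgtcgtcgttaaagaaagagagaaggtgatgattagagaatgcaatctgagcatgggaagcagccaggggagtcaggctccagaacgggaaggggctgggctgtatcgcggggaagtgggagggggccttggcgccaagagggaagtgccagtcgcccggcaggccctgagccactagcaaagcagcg
Apln: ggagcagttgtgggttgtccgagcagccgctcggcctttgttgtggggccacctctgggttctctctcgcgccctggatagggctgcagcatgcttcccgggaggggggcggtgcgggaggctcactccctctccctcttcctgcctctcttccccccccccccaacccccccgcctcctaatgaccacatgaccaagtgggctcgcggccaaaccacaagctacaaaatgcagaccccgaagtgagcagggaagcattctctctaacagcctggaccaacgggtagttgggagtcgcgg
Kdr: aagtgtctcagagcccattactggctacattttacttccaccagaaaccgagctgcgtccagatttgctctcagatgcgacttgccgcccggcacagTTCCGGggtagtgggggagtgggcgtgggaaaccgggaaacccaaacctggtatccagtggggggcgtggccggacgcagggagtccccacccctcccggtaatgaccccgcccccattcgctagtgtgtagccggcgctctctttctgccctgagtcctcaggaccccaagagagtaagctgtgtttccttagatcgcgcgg

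The sequence table held 24 start windows of 20 members. Across them, CCGGAA on either strand was in 3 (12.5%, against 14.9% of all 32851 windows), and the FOX:ETS motif AACAGGAA was in 2 (8.33%, against 2.65%), one of which was Emcn. The nuclear receptor half-site AGGTCA was in 4 (16.67%, against 16.26%). The PPAR DR1 repeat (0.04% of all windows), the ERR motif TCAAGGTCA (0.42%) and the C/EBP motif TTGCNNCAA (2.08%) were in 0 of the 24. The DR1 repeat contains the half-site, as does the ERR motif. These are matches of letters in a short window.

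PPARG peaks were found at nearly every member at both temperatures. At RT the 3 lists had a peak at 34, 35 and 33 of the 36 loci, and in cold at 34, 35 and 34. Of all loci, 62.3% to 66.9% had one at RT and 59.3% to 62.9% in cold. Emcn, a sialomucin of capillaries and veins, had a PPARG peak in 1 RT list (0.323 kb) and in 0 of 3 cold lists. H3K27ac peaks lay at 35 or 36 members in each of the 14 lists.

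The other factors were found at fewer members, with shares near those of all loci. PPARA lists had a peak at 18 and 15 members at RT (at 52.8% and 49.4% of all loci) and at 11, 7 and 6 members in cold, CEBPA at 16, 17 and 20, CEBPB at 19 and 21, ERR1 at 15 at RT and 23 in cold, and PGC1A at 2, 4 and 3. Heg1, a junction signalling protein, and Nos3, the nitric oxide synthase of endothelium, were the members with PGC1A in all 3 lists. At 12 members (Cdh5, Esam, Emcn, Kdr, Tie1, Ptprb, Eng, Sox17, Erg, Fli1, Aplnr and Adgrl4) none of the 5 PPARA and CEBPA lists from RT had a peak, and of these 12, Emcn is the one without PPARG in cold. PGC1A, CEBPA and CEBPB were each profiled at 1 temperature, so factor and temperature cannot be told apart for them.

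**Figure D1:**
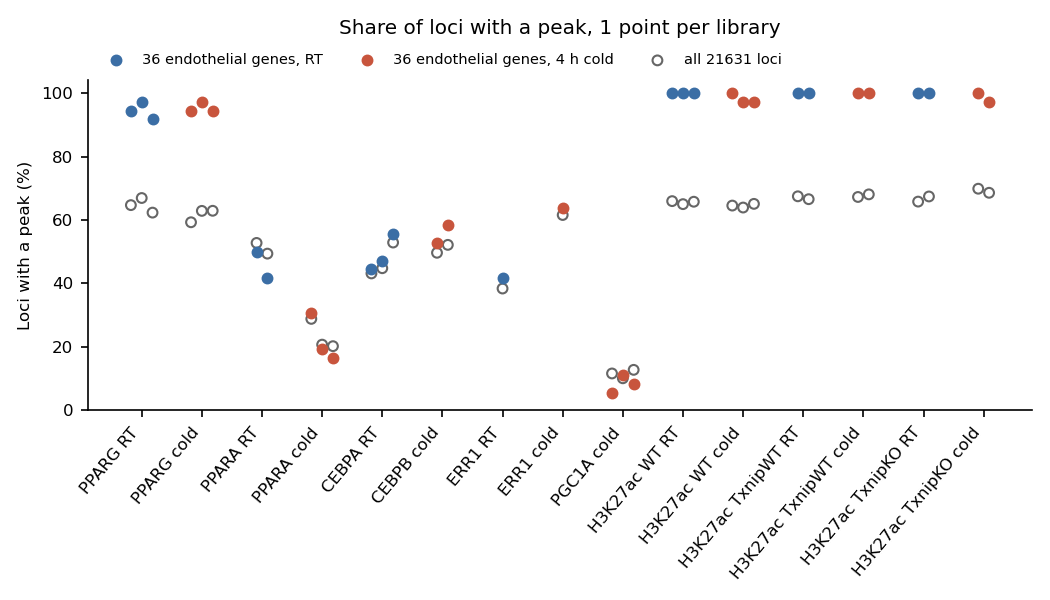
Share of loci with a peak (%, y axis) in each library, by target, temperature and genotype. Filled points are the 36 endothelial genes and open points all 21631 loci. The PPARG and H3K27ac lists sit near the top for the endothelial genes, above their open points, while for PPARA, CEBPA, CEBPB, ERR1 and PGC1A filled and open points lie close together.

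In cold, PPARG covered more of most endothelial loci. The share of all PPARG-covered bases that fell in the 36 loci was 0.380%, 0.396% and 0.401% in the RT libraries and 0.601%, 0.606% and 0.580% in the cold libraries. Of 35 members tested, 21 rose and 2 fell (limma, Benjamini-Hochberg adjusted over all 14105 loci tested, threshold 0.05). Of all loci tested, 5.04% rose and 5.13% fell. The median log2 change was 0.57 over the members and 0.03 over all loci. In this bulk tissue the peaks cannot be assigned to a cell type. More endothelial cells, more binding per cell, binding in other cells and binding at an overlapping neighbouring gene cannot be told apart.

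Scaling set part of these counts. Without it the median of all loci moved to -0.22 and that of the members to 0.31, which left the members 0.53 above all loci (0.54 with scaling). The calls were then 6 members higher and 2 lower, and 155 loci higher and 1346 lower in all, against 711 and 723 with scaling. With 1 library left out, members called higher ranged from 10 (without cold replicate 2, or without cold replicate 3) to 17 (without RT replicate 3), with 12 without cold replicate 1, 11 without RT replicate 1 and 13 without RT replicate 2. The 9 members called higher in every one of these fits were Pecam1, Cdh5, Kdr, Flt1, Eng, Sox18, Ets1, Notch4 and Adcy4.

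Among receptors for vessel growth factors, 6 of 7 rose and 0 fell. Kdr, the main VEGF receptor of endothelium (chr5:75932827-75979072), was covered by 3.66, 4.49 and 4.09 kb of PPARG peaks at RT and 7.80, 9.44 and 9.14 kb in cold, a log2 change of 1.33 ± 0.10 (SE, adjusted p = 0.00126). The 3 cold libraries were all above the RT libraries, with no overlap. Eng, a co-receptor for TGF-beta ligands, had 3.19, 4.28 and 4.50 kb at RT and 6.81, 7.47 and 6.18 kb in cold (1.03 ± 0.16, adjusted p = 0.00905). Its groups did not overlap either. Tek, the angiopoietin receptor, had 1.45, 1.53 and 1.94 kb at RT and 2.17, 2.91 and 2.75 kb in cold (0.81 ± 0.16, adjusted p = 0.0191), with all cold libraries above the RT libraries.

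Flt1, a VEGF receptor that can act as a decoy, had 5.53, 7.21 and 6.76 kb at RT and 6.71, 10.5 and 8.86 kb in cold (0.70 ± 0.13, adjusted p = 0.0143). Its unscaled lengths overlapped, since the lowest cold library lay below the highest RT library, and the scaled ones did not. Flt4, the VEGF receptor of lymphatic endothelium, was thinly covered, with 0.409, 0.366 and 0 kb at RT and 0.641, 0.847 and 1.40 kb in cold (1.14 ± 0.28, adjusted p = 0.0387). Ptprb, a phosphatase that acts on Tek and on cadherin junctions, rose by 0.62 ± 0.15. Tie1, the partner of Tek, had a change of 0.55 ± 0.35 that did not pass (adjusted p = 0.365).

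Of the 6 transcription factors, 5 rose. Sox17, a factor of arterial endothelium, had 1.23, 0.386 and 0.318 kb at RT and 1.85, 1.96 and 2.39 kb in cold (1.47 ± 0.27, adjusted p = 0.0164), with all cold libraries above all RT libraries. Ets1 had 5.66, 7.43 and 5.07 kb at RT and 8.83, 11.0 and 8.49 kb in cold (0.93 ± 0.12, adjusted p = 0.00459), also without overlap. Erg, an ETS factor that keeps endothelial identity, had 3.44, 2.58 and 2.83 kb at RT and 3.38, 4.36 and 4.28 kb in cold (0.68 ± 0.15, adjusted p = 0.0261). For Erg 1 cold library lay just under the highest RT library before scaling. Sox18 rose by 0.73 ± 0.11 over the locus, where its gene body taken without flanks gave -0.04, and Fli1 rose by 0.71 ± 0.17. Sox7 had a change of 0.38 ± 0.29 (adjusted p = 0.456).

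Of the junction and adhesion genes tested, 3 of 7 rose. Pecam1, an adhesion molecule of endothelial contacts (chr11:106654213-106715281), had 3.71, 3.46 and 3.38 kb at RT and 7.41, 7.73 and 6.71 kb in cold (1.26 ± 0.13, adjusted p = 0.00290). Cdh5, the cadherin of endothelial junctions (chr8:104101613-104144504), had 2.26, 3.22 and 2.68 kb at RT and 4.28, 4.97 and 6.46 kb in cold (1.13 ± 0.14, adjusted p = 0.00430). The cold libraries of both genes lay above their RT libraries. Rasip1, a Ras-interacting protein needed for vessel lumens, rose by 0.77 ± 0.18. The claudin gene Cldn5 (0.38 ± 0.13, adjusted p = 0.109), Esam (0.37 ± 0.11, adjusted p = 0.0653), Icam2 (0.44 ± 0.20) and Heg1 (0.15 ± 0.14) did not pass, and Emcn was not tested because too few lists covered it.

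Of the 7 G protein and guidance genes, 5 rose and 1 fell. Adcy4, an adenylyl cyclase, had 0, 0.463 and 0 kb at RT and 0.878, 1.88 and 2.21 kb in cold (1.92 ± 0.30, adjusted p = 0.00882), the highest change among the members. Adgrl4, an adhesion receptor of vessel sprouting, rose by 0.81 ± 0.19, and the sphingosine-1-phosphate receptor gene S1pr1 by 0.60 ± 0.14. The guidance receptor genes Robo4 and Unc5b rose by 0.57 ± 0.15 and 0.56 ± 0.12. Apln, the gene of the peptide apelin made by sprouting tip cells, went the other way, from 2.28, 1.91 and 1.58 kb at RT to 0, 0.824 and 0 kb in cold (-1.66 ± 0.38, adjusted p = 0.0328). With 1 library left out, this call held in 1 of 6 fits (without cold replicate 2) and was lost in the others, with adjusted p up to 0.0997. Its receptor gene Aplnr had a change of 0.35 ± 0.21 that did not pass.

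Of 3 Notch pathway genes, Notch4 rose by 0.52 ± 0.08, and Notch1 (0.29 ± 0.14) and the ligand gene Dll4 (0.23 ± 0.09) did not pass. Among 5 secreted, matrix and effector genes, 1 rose and 1 fell. Egfl7, a secreted vessel protein, rose by 0.51 ± 0.12. Mmrn2, a matrix protein of endothelium, had 5.70, 6.80 and 5.40 kb at RT and 2.65, 2.61 and 2.82 kb in cold (-0.71 ± 0.11, adjusted p = 0.00831), with every cold library below every RT library, and it kept its call with any 1 library left out.

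Nos3 had 6.4, 8.33 and 8.64 kb at RT and 5.11, 6.78 and 7.05 kb in cold (0.03 ± 0.13, adjusted p = 0.908), and its sign changed with the scaling (-0.28 without it). Plvap, the protein of the diaphragms in capillary pores, had 3.73, 4.74 and 4.97 kb at RT and 3.31, 4.65 and 4.13 kb in cold (0.16 ± 0.14, adjusted p = 0.498, and -0.14 without scaling). For both genes the libraries of the 2 temperatures overlapped. Vwf, the clotting factor stored in endothelium, had 2.36, 2.14 and 1.66 kb at RT and 0.365, 1.12 and 1.15 kb in cold. All cold libraries of Vwf were below the RT libraries, and the change did not pass (-0.72 ± 0.24, adjusted p = 0.0997).

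**Figure D2:**
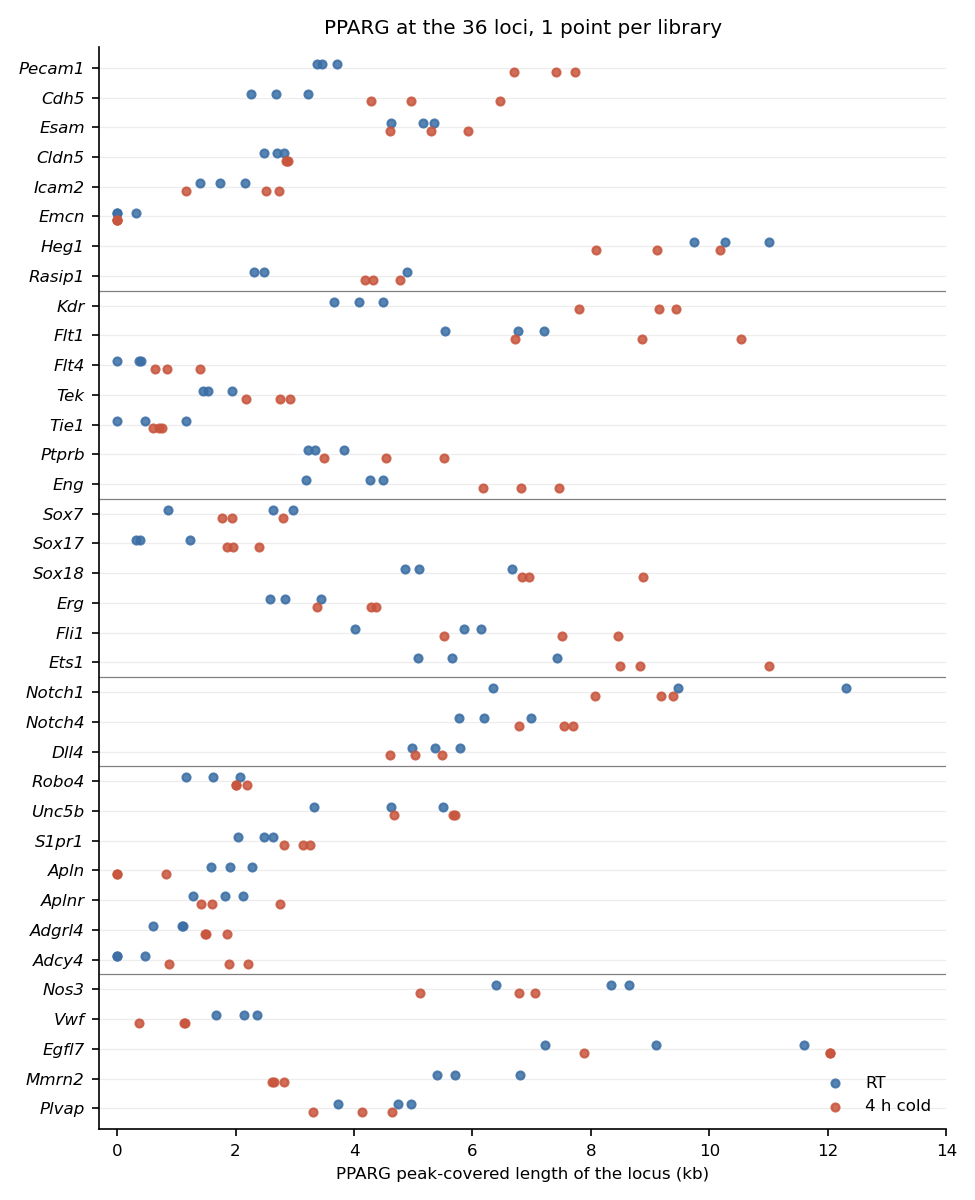
PPARG peak-covered length of each of the 36 loci (kb, x axis, unscaled), 1 point per library, blue for RT and red for 4 h of cold, with lines between the roles. The red points of Pecam1, Cdh5, Kdr, Eng and Ets1 lie to the right of all their blue points, and those of Apln, Vwf and Mmrn2 to the left.

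The 36 loci held 259 of 59517 merged PPARG sites. Of these, 109 were held by all 6 libraries (42.08%, against 37.94% of all sites), 10 were gained, that is in all cold lists and no RT list (3.86%, against 1.75%), 5 were lost (1.93%, against 5.27%), and 135 were in some lists only. The gained count was 22 with lists of equal length, 21 without RT replicate 2, 18 without cold replicate 1 and 15 without cold replicate 2, and the lost count was 9 without RT replicate 3. All-library sites covered 113, 122 and 112 kb at the member loci in the RT libraries and 117, 135 and 128 kb in the cold libraries. By their definition, gained sites covered 0 kb at RT and lost sites 0 kb in cold. Gained sites covered 5.34, 6.47 and 5.16 kb in cold, and lost sites 2.22, 2.79 and 2.44 kb at RT. Sites in some lists covered 17.3, 34.2 and 15.4 kb at RT and 23.8, 41.7 and 39.2 kb in cold. These lengths are unscaled, and those of all-library sites and of sites in some lists overlapped between the temperatures.

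The 10 gained sites lay at 8 loci, with 2 each at Pecam1 and Ets1 and 1 each at Cdh5, Tek, Eng, Unc5b, Adcy4 and Plvap. The authors' deposited fold enrichment at the summit, a descriptive value that was not tested, averaged 20.4 over the cold lists at the site beside Pecam1 (chr11:106722438-106723620). It was 7.84 within Unc5b (chr10:60819162-60819782, 12.1 kb from the start), 7.71 upstream of Adcy4 (chr14:55793404-55794138) and 6.33 upstream of Eng (chr2:32642555-32643450, 3.59 kb before the start). The gained site at Tek (chr4:94738347-94739881, 5.79) spans the start whose sequence is printed above. Of the 10, the PPARA lists from RT held 0 (4.89% of all 1044 gained sites), the CEBPA lists 2 (19.06%), the CEBPB lists 2 (31.7%), and the H3K27ac WT lists from RT 7 (54.41%).

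Of the 5 lost sites, 3 were at Mmrn2 (chr14:34397634-34398401, chr14:34370205-34370764 and chr14:34374632-34375231) and 1 each at Apln (chrX:48031719-48032408, 2.79 kb into the gene) and Robo4 (chr9:37414560-37415062). Their deposited fold averaged 7.79, 6.59, 4.96, 8.36 and 7.09 in that order over the RT lists. PPARA lists from RT held 4 of these 5, against 45.74% of all 3137 lost sites.

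For 9 of the 10 key genes, the site with the highest deposited fold among those held by all 6 lists is given here. This fold averaged 25.4 at RT and 31.2 in cold at Pecam1 (chr11:106674513-106675782), 10.3 and 17.8 at Cdh5 (chr8:104100975-104102471), 12.5 and 17.9 at Kdr (chr5:75961660-75962716), and 15.3 and 27.3 at Tek (chr4:94745852-94747079, 7.18 kb into the gene). Further sites were at Flt1 (chr5:147650750-147653060, 16.8 and 19.2), Erg (chr16:95438676-95440062, 10.2 and 14.8), Sox17 (chr1:4492912-4494023, 5.09 and 8.85), Nos3 (chr5:24364137-24368218, 29.1 and 29.4) and Plvap (chr8:71495029-71497059, 21.8 and 31.2). Apln had no all-library site. Folds of lists with different peak numbers are set side by side here without a comparison.

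Among the 138 sites at members with a listed start, 22 had their centre within 1 kb of it, the median distance was 10.0 kb, and 69 lay over 10 kb away, as far as 151.3 kb. For the other sites the tables used gave no start, and 79 of those lay in gene bodies and 42 in flanks. Of the 10 gained sites, 1 was within 1 kb of a listed start, that of Tek.

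**Figure D3:**
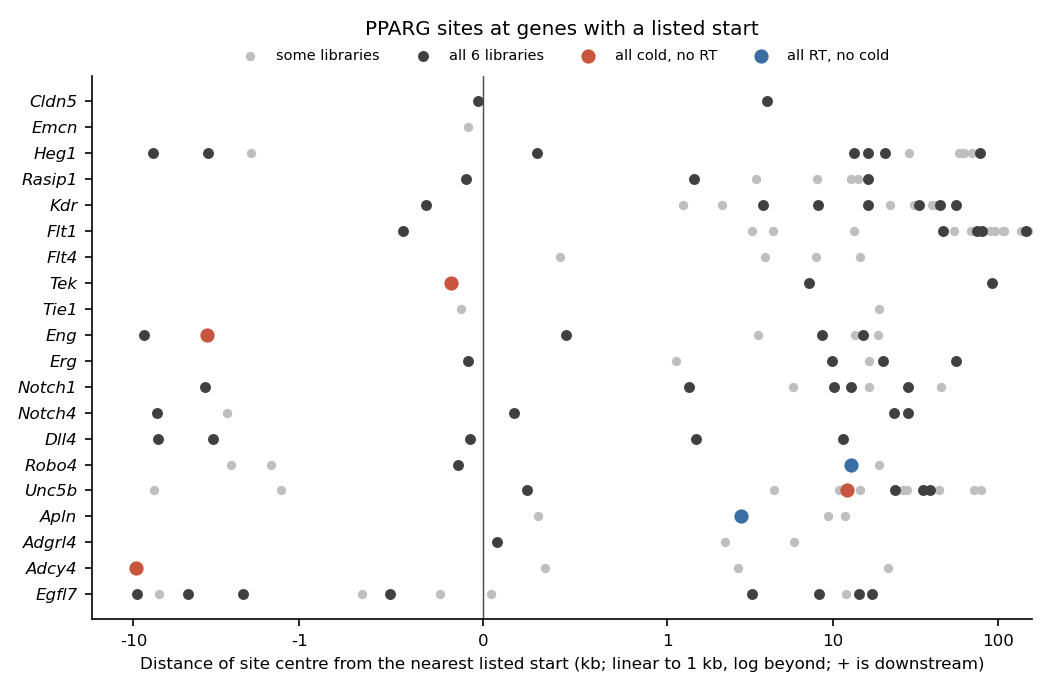
Distance of PPARG site centres from the nearest listed start (kb, x axis, linear to 1 kb and logarithmic beyond, positive is downstream) for members with a listed start. Black points are sites of all 6 libraries, red points are in all cold and no RT lists, blue points the reverse, and grey points the rest. The red point of Tek is the one within 1 kb of a start, and most sites of Kdr and Flt1 lie far into or beyond the gene body.

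All-library PPARG sites were compared by their width, without a test. The median width over the 109 sites was 809, 852 and 858 bp in the RT libraries and 900, 1102 and 986 bp in cold. Over all 22582 such sites it was 865, 957 and 846 bp at RT and 720.5, 826 and 808 bp in cold. At the members 29 sites (26.6%) were wider in every cold library than in every RT library and 10 (9.2%) were narrower. Over all sites these shares were 6.1% and 24.8%, so that wider sites outnumbered narrower ones at the members and the reverse held over all sites. Kdr had 5 of its 7 all-library sites wider. The one at the Kdr start (chr5:75978018-75979515) measured 544, 453 and 421 bp at RT and 1200, 1366 and 959 bp in cold. A site within Kdr (chr5:75944220-75946031) measured 374, 635 and 548 bp at RT and 1602, 1458 and 1686 bp in cold. A site at Nos3 (chr5:24382355-24384962) was narrower in every cold library, with 1089, 1702 and 1862 bp at RT and 482, 506 and 688 bp in cold.

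Overlap with the other factors was set side by side for sites at the members and for all sites, without a test. PPARA lists from RT held 28.44% of the 109 all-library sites at members and 76.57% of all such sites. The same shares were 25.69% and 66.18% for CEBPA, 21.10% and 58.37% for CEBPB and 31.19% and 68.53% for ERR1 in cold. H3K27ac of WT mice at RT lay over 96.33% and 88.14%. The share without any PPARA, CEBPA, CEBPB or ERR1 peak was 59.6% (65 sites) at the members and 11.9% (2684 sites) over all.

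Width was then described by this split, which was chosen after the values were seen. Of the 65 member sites with none of these factors, 25 (38.5%) were wider in every cold library and 2 (3.1%) narrower. Of the 44 with another factor, 4 (9.1%) were wider and 8 (18.2%) narrower. Over all sites, 21% without another factor were wider and 7.4% narrower, against 4.0% and 27.1% with one. The 2 kinds of site also differed in width at RT. The median was 716 bp without and 1366.7 bp with another factor at the members, and 629.7 and 936.8 bp over all sites. The part of this starting width in the split was not tested. By locus, of 11 tested members with no peak in any PPARA or CEBPA list from RT, 8 rose and 0 fell (median 0.71), and among all 1153 such loci tested 10.67% rose and 3.21% fell (median 0.16). Of 10 members with a peak in all 5 lists, 4 rose and 2 fell (median 0.23), against 4.56% and 7.0% of all such loci.

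**Figure D4:**
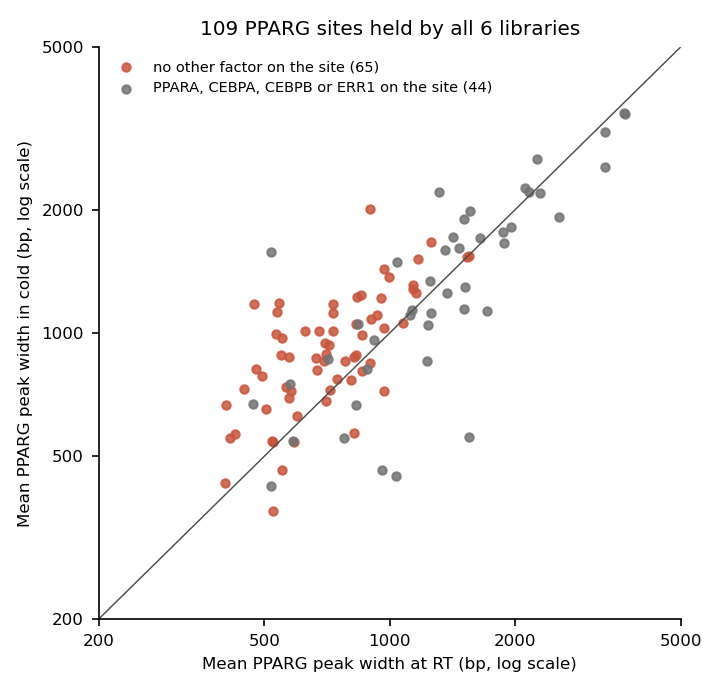
Mean PPARG peak width at RT (bp, x axis, log scale) and in cold (bp, y axis, log scale) of the 109 sites at endothelial genes held by all 6 libraries. Red points are the 65 sites with no other factor and grey points the 44 with PPARA, CEBPA, CEBPB or ERR1. Most red points lie above the line of equal width, and the grey points lie on both sides of it.

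In the WT cohort, H3K27ac also covered more of many of these loci in cold. Of 36 members 12 rose and 1 fell, against 5.39% and 6.55% of all 15163 loci tested (limma, 14 H3K27ac libraries in 1 fit). The median change was 0.24, against 0.03 over all loci. Of the receptors for vessel growth factors 5 of 7 rose. Of 6 transcription factors 1 passed (Ets1), all 6 changes were above 0, and Sox7, Erg, Fli1 and Ets1 were higher at an unadjusted p under 0.05. Of 5 secreted genes 0 passed in limma (1 at an unadjusted p under 0.05, Vwf, lower). Differences between the roles were not tested. Without scaling 3 members rose and 1 fell, where 184 of all loci tested rose and 829 fell. With 1 library left out, 4 to 16 rose: 4 without cold replicate 2, RT replicate 1 or RT replicate 2, 5 without cold replicate 3, 14 without cold replicate 1 and 16 without RT replicate 3. Cdh5, Rasip1, Kdr and Ets1 rose, and Apln fell, in all of these fits.

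Cdh5 had 15.8, 14.8 and 18.3 kb of H3K27ac at RT and 24.6, 25.1 and 29.0 kb in cold (0.77 ± 0.08, adjusted p = 0.000401). All cold libraries were above all RT libraries, and 7 of the 14 H3K27ac regions gained at the members lay at Cdh5, 6 of them within the gene body. The 14 became 6 with stricter peaks, 27 without RT replicate 3, 31 without cold replicate 1 and 26 without cold replicate 2. Kdr had 35.3, 30.4 and 42.3 kb at RT and 49.4, 49.3 and 51.2 kb in cold (0.57 ± 0.09, adjusted p = 0.00298), again without overlap. Rasip1 had 10.7, 9.93 and 12.1 kb at RT and 14.2, 14.2 and 16.1 kb in cold (0.52 ± 0.08, adjusted p = 0.00184). Ptprb had 19.2, 19.4 and 26.8 kb at RT and 29.7, 28.0 and 33.9 kb in cold (0.58 ± 0.13, adjusted p = 0.0140). For both genes the cold libraries lay above the RT libraries.

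Ets1 had 55.6, 46.6 and 64.2 kb at RT and 68.7, 67.6 and 77.4 kb in cold (0.46 ± 0.08, adjusted p = 0.00480), without overlap. Unc5b had 10.2, 8.75 and 12.5 kb at RT and 12.6, 12.3 and 17.01 kb in cold (0.49 ± 0.14, adjusted p = 0.0410). Tek had 16.9, 13.2 and 18.2 kb at RT and 17.3, 21.2 and 24.6 kb in cold (0.47 ± 0.13, adjusted p = 0.0356). In Tek and Unc5b the lowest cold library was below the highest RT library before scaling. Flt1 had 37.3, 38.2 and 49.6 kb at RT and 46.6, 48.7 and 57.8 kb in cold, with the same kind of overlap (0.39 ± 0.10, adjusted p = 0.0335), and held 4 of the gained regions. Adgrl4, Eng, Robo4 and Dll4 rose by 0.41, 0.35, 0.33 and 0.23.

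Apln fell, with 1.81, 2.08 and 2.97 kb at RT and 0.367, 0 and 0 kb in cold (-2.36 ± 0.28, adjusted p = 0.000764). The single H3K27ac region lost at a member lay within Apln (chrX:48032352-48033982), and it overlapped the lost PPARG site of that gene. Several members with more PPARG in cold did not pass in H3K27ac. Pecam1 had 33.2, 31.6 and 40.0 kb at RT and 37.5, 39.0 and 42.8 kb in cold (0.28 ± 0.08, adjusted p = 0.0521). Sox17 had 7.08, 6.97 and 7.08 kb and then 7.13, 7.46 and 7.12 kb (0.12 ± 0.11, adjusted p = 0.552). Both temperatures were thus nearly level at Sox17.

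Erg had 25.3, 23.7 and 27.8 kb of H3K27ac at RT and 25.9, 26.6 and 30.0 kb in cold (0.19 ± 0.07, adjusted p = 0.124). Nos3 had 12.4, 10.7 and 12.9 kb and then 11.8, 9.92 and 11.1 kb (-0.04 ± 0.08, adjusted p = 0.834). Plvap had 5.68, 6.0 and 6.99 kb and then 5.84, 6.58 and 6.79 kb (0.13 ± 0.13, adjusted p = 0.591). The temperatures overlapped in all 3 genes.

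Set side by side, 11 members were called higher for both PPARG and H3K27ac (Cdh5, Rasip1, Kdr, Flt1, Tek, Ptprb, Eng, Ets1, Robo4, Unc5b and Adgrl4). Another 10 were called higher for PPARG and not called for H3K27ac (Pecam1, Flt4, Sox17, Sox18, Erg, Fli1, Notch4, S1pr1, Adcy4 and Egfl7), and the reverse held for Dll4. The difference between the targets was not tested, and at an unadjusted p under 0.05 Pecam1, Erg, Fli1, Notch4, S1pr1 and Adcy4 were higher for H3K27ac too, and Dll4 for PPARG. Apln was lower for both, its PPARG call being the one lost in most fits with a library left out, and Mmrn2 was called lower for PPARG and not called for H3K27ac. Of the 10 gained PPARG sites 0 overlapped an H3K27ac region gained in the WT cohort, and 5.46% of all 1044 gained PPARG sites did, a share too low for 10 sites to be read against.

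**Figure D5:**
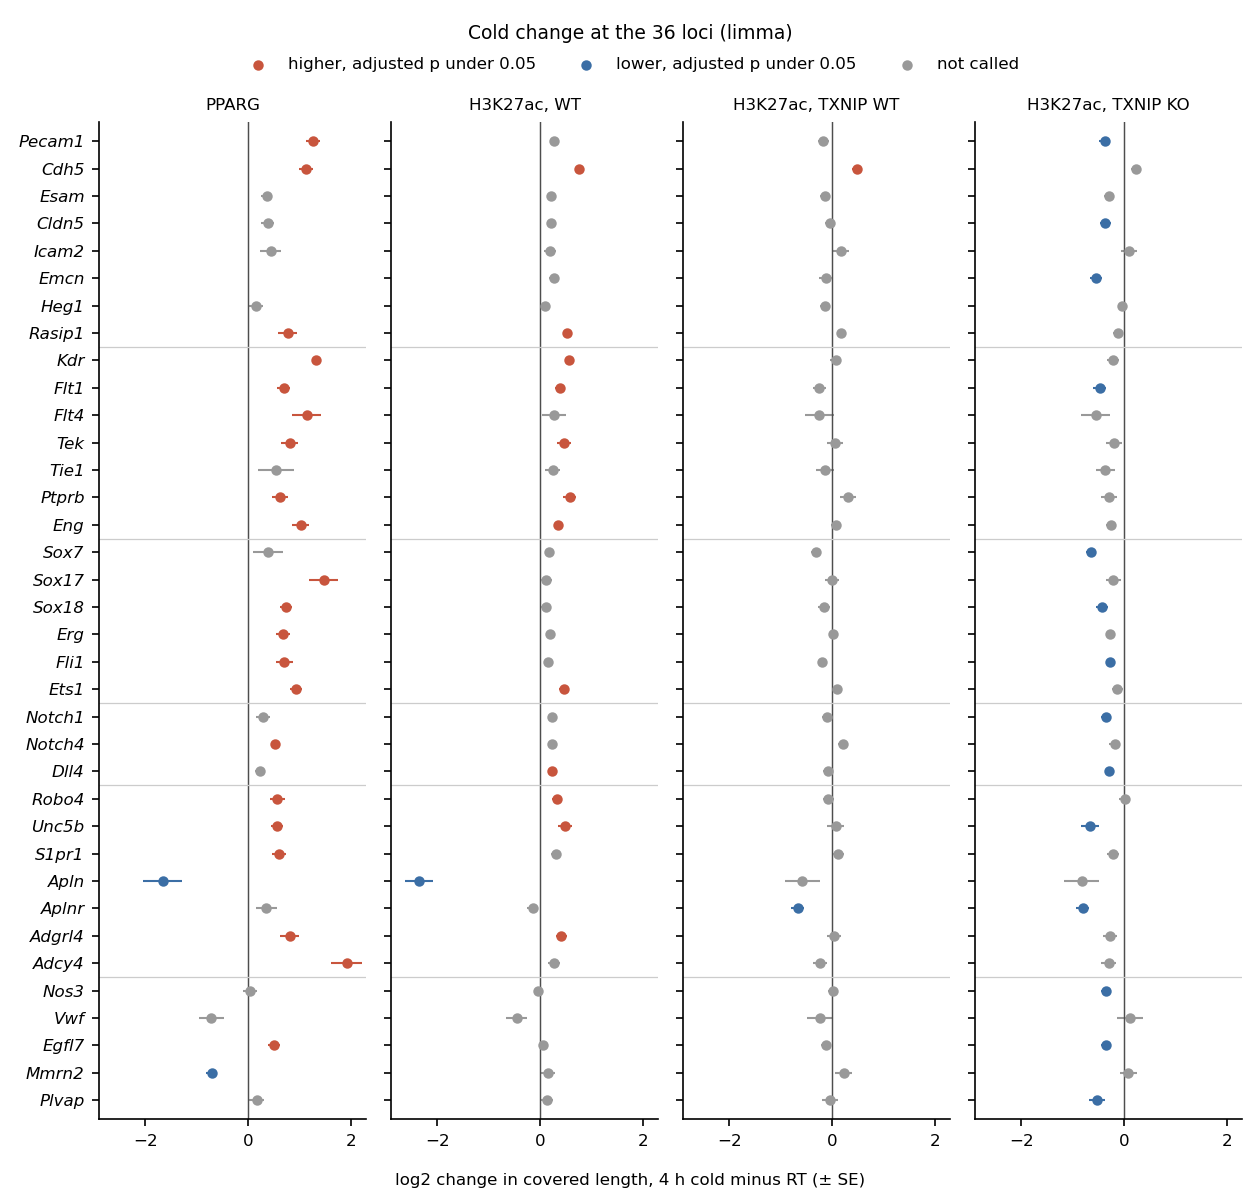
Log2 change in covered length, 4 h of cold minus RT (x axis, scaled, points with ± SE from limma), at the 36 loci for PPARG and for H3K27ac in WT, TXNIP WT and TXNIP KO mice. Red and blue mark adjusted p under 0.05. The PPARG panel has 21 red points, the H3K27ac WT panel has 12, and the TXNIP KO panel has 14 blue points and no red ones.

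In TXNIP WT mice, 1 member rose and 1 fell, where 4.54% and 2.39% of all loci did. Cdh5 had 24.7 and 24.4 kb of H3K27ac at RT and 37.0 and 38.6 kb in cold (0.48 ± 0.10, adjusted p = 0.0132). Aplnr, the apelin receptor gene, had 15.8 and 15.96 kb at RT and 9.66 and 11.9 kb in cold (-0.67 ± 0.13, adjusted p = 0.0116). Both genes had groups that did not overlap. With 1 library left out (the lone library then taken to vary like the other groups), both calls were lost without cold replicate 1, that of Cdh5 without RT replicate 1 and that of Aplnr without RT replicate 2, and 2 members were called without cold replicate 2.

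In TXNIP KO mice, 0 of 36 members rose (1 at an unadjusted p under 0.05, Cdh5) and 14 fell, where 7.73% and 6.49% of all loci did. The members' median was -0.29, against -0.03 for all loci. Markers of other cells moved in the same libraries: 3 of 9 macrophage genes tested were higher in cold and 0 lower, with 9 of 9 changes above 0 and a median of 0.59. The 3 were Mrc1 (2.06), Itgam (1.87) and Cd68 (0.39), named after their values were seen. The 10 macrophage loci summed, unscaled, to 21.6 and 37.3 kb at RT, with Cx3cr1 at 0. In cold they summed to 47.2 and 87.9 kb, without overlap. Unscaled sums of the mural, brown adipocyte, fibroblast and Schwann cell lists also rose in KO without overlap. Mural genes went from 72.3 and 96.6 kb to 104.1 and 110.7 kb, and fibroblast genes from 29.9 and 41.4 kb to 47.1 and 58.4 kb. In TXNIP WT mice the macrophage loci rose too, from 18.8 and 27.9 kb to 28.4 and 38.2 kb, without overlap. The mural (89.5 and 91.6 kb to 114.1 and 115.9 kb), brown adipocyte, fibroblast and Schwann cell sums also rose there without overlap. By the scaled test in KO mice, brown adipocyte genes had 3 higher and 2 lower of 12 (median -0.16) and mural genes 0 and 1 of 11. Fibroblast genes had 0 and 0 of 10 in that test, and Schwann cell genes 1 and 0 of 6. The part of these cells in the result was not tested. The calls at the members rested on the scaling: the KO cold lists covered 102.2 and 108.1 Mb and the KO RT lists 73.2 and 87.6 Mb. Without scaling 2 members rose and 1 fell, where 4294 of all 15163 loci tested rose and 130 fell. The medians were then 0.09 for the members and 0.30 for all loci. Unscaled, 6 of the 14 had libraries that did not overlap, as had 17 of the 22 members not called. The share over all loci was not counted. At 1 of the 6, Dll4, the cold libraries were the higher ones. With 1 library left out, 2 fell without cold replicate 1 or RT replicate 1, 4 without cold replicate 2 and 9 without RT replicate 2, with Aplnr and Sox7 in every such fit.

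Aplnr had 12.8 and 14.9 kb at RT and 9.72 and 10.4 kb in cold (-0.81 ± 0.13, adjusted p = 0.00360). Sox7 had 12.7 and 14.6 kb at RT and 10.9 and 11.5 kb in cold (-0.64 ± 0.09, adjusted p = 0.00239). Unc5b had 12.5 and 15.6 kb at RT and 12.1 and 10.6 kb in cold (-0.67 ± 0.17, adjusted p = 0.0270). In these 3 genes, both cold libraries were lower also before scaling, as they were for Emcn, with 4.32 and 4.19 kb at RT and 3.46 and 3.75 kb in cold (-0.55 ± 0.12, adjusted p = 0.0140).

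Sox18 had 21.1 and 20.9 kb at RT and 20.5 and 20.03 kb in cold (-0.43 ± 0.11), a small difference before scaling. Flt1 had 62.2 and 77.6 kb at RT and 65.2 and 65.9 kb in cold (-0.47 ± 0.13). Plvap had 8.34 and 11.2 kb at RT and 8.08 and 9.19 kb in cold (-0.52 ± 0.15). The unscaled groups of Flt1 and Plvap overlapped. Pecam1 had 44.9 and 50.2 kb at RT and 48.5 and 46.9 kb in cold (-0.38 ± 0.10), overlapping in the same way. The others called lower were Cldn5, Fli1, Notch1, Dll4, Nos3 and Egfl7, by -0.37 to -0.28. Cdh5 had 23.0 and 27.2 kb at RT and 38.5 and 39.0 kb in cold, more in both cold libraries, with a scaled change of 0.24 ± 0.10 that did not pass (adjusted p = 0.113).

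At RT 0 of 36 passed in limma, where 0.0132% of all loci were higher and 0.066% lower in KO. Unadjusted (p under 0.05), 1 member was lower in KO, Unc5b. In cold Unc5b was lower in KO, with 12.1 and 10.6 kb against 25.7 and 19.7 kb in TXNIP WT (-1.13 ± 0.17, adjusted p = 0.0308). It was the 1 member called, where 0.112% of all loci were lower and 0.33% higher, and the count was 0 without scaling, without KO cold replicate 1 or without WT cold replicate 1, and 3 without KO cold replicate 2. At an unadjusted p under 0.05, 0 members were higher and 11 lower in KO in cold, and the share of all loci at that level was not taken. Of 36 changes 3 were above 0, and the median was -0.22, against -0.02 over all loci. In the same comparison 0 of 9 macrophage genes passed (5 higher at an unadjusted p under 0.05, median 1.11), and their part in these values was not tested. The difference in cold response between TXNIP KO and TXNIP WT mice passed at 0 members in limma. Of all loci, 0.0264% were higher and 0.0066% lower at that adjusted threshold. Unadjusted p-values under 0.05 were found at 11 members, all lower in KO, and the share of all loci at that level was not taken. In a contrast added after the data were seen, the cold response of the WT cohort exceeded that of TXNIP KO at 21 members and was below it at 1, where 5.22% and 5.44% of all loci passed in these directions, and without scaling 0 and 1 passed. Against TXNIP WT the same contrast passed at 0 members in limma, where 0.0462% and 0.178% of all loci did. Unadjusted (p under 0.05), 15 members were higher and 1 lower, again without a share of all loci. The WT cohort differs from the TXNIP mice in peak width and in input samples as well as in genotype labels, and these cannot be told apart. Each WT replicate had its own input, while each TXNIP group shared an input whose label adds a fixation step.

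PPARA was sparse at these genes. Of 14 members with enough covered lists to be tested, 0 rose and 3 fell, where 4.21% of all 10231 loci tested rose and 31.1% fell, and the medians were -0.56 and -0.44. At an unadjusted p under 0.05, 2 were higher and 4 lower, and the share of all loci at that level was not taken. Flt1 had 0.332 and 0.387 kb at RT, Sox7 1.04 and 0.656 kb, and Dll4 0.802 and 0.937 kb, and all 3 were at 0 in the 3 cold lists. No fold is given, since their cold lists are all at 0. These genes reached the test through their RT lists alone, so a fall was the only call open to them. With either RT library left out these 3 genes had too few covered lists to be tested, and 0 members were called. Without scaling 11 members fell and 0 rose, where 6851 of all 10231 loci tested fell and 8 rose. Of 55 PPARA sites at 19 members, 0 were gained and 15 lost (27.27%, against 24.1% of all sites).

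ERR1 was compared with 1 library per temperature, so there is no test. The cold list was the longer (18.2 Mb against 5.91 Mb). Of 23 covered members, 1 was past 2-fold higher after scaling, Eng, which went from 0 to 1.03 kb, where 11.2% of 13369 loci were. Flt1 was past 2-fold lower, from 0.490 to 0.307 kb before scaling, where 1.23% of loci were.

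A second list of 54 vessel genes gave fewer PPARG calls, 11 higher and 3 lower of 48 tested (median 0.23). Of its 13 transcription factors 5 rose and 0 fell, among them Tal1 (1.86), Mef2c (0.99) and Gata2 (0.99). Of 6 ligand genes tested 0 rose and 2 fell, the angiopoietin genes Angpt2 (-1.14) and Angpt1 (-0.62), while the receptor of these ligands, Tek, rose. Of 5 lipid handling genes of capillaries, Gpihbp1 (0.74), which carries lipoprotein lipase across the endothelium, and Cd36 (0.34), a fatty acid transporter, rose. In H3K27ac of the WT cohort, 11 of 52 rose and 1 fell, again Angpt1 (-1.32).

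Markers of other cells in the tissue were measured in the same way. For PPARG, 0 of 9 mural cell genes tested rose and 2 fell, 0 of 12 brown adipocyte genes rose and 2 fell (Cebpa -0.53, Prdm16 -0.45), 0 of 2 macrophage and 0 of 5 Schwann cell genes were called, and 1 of 5 fibroblast genes rose (Col1a1, 0.86). At an unadjusted p under 0.05, 1 brown adipocyte gene was higher and 1 macrophage gene lower, with 0 mural and 0 Schwann cell genes higher. Median changes of these 5 lists were -0.03 for mural, -0.06 for brown adipocyte, -0.24 for macrophage, 0.17 for fibroblast and -0.19 for Schwann cell genes. Their unscaled summed PPARG length at RT and in cold was 19.4 to 25.3 and 13.1 to 17.96 kb for mural, 123 to 143 and 83.7 to 101 kb for brown adipocyte, and 18.3 to 18.97 and 11.7 to 13.7 kb for Schwann cell genes. Macrophage genes summed to 4.67 to 5.62 and 4.12 to 4.86 kb with 7 of 10 at 0 at each temperature. Fibroblast genes overlapped, with 7.085 to 7.652 kb at RT and 7.09 to 7.555 kb in cold, and 5 of 10 at 0 at each temperature. In H3K27ac of the WT cohort, 1 of 11 mural genes (Pdgfrb, 0.40) and 2 of 12 brown adipocyte genes (Dio2 1.48, Ppargc1a 0.70) rose, and 1 of 10 fibroblast genes fell (Pdgfra, -0.93). The part of cell numbers in the changes at the endothelial genes was not tested.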

How the data were processed

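Peak lists of 35 ChIP-seq libraries of mouse BAT were analysed, and the 17 input samples were not analysed here. Groups and replicate numbers came from sample titles. Per the labels' protocols, tissue was fixed with 0.8% formaldehyde for 12 min, preceded by 2 mM DSG for 25 min except for H3K27ac. The inputs of the TXNIP groups are labelled with DSG although their H3K27ac libraries are not, and those of the WT cohort are labelled without it. Per the submitters' processing notes, the build was GRCm38.p6 and the tools were MACS2 2.2.7.1, BWA 0.7.17, Trim Galore 0.6.0, deepTools 3.4.3 and SAMtools, with settings not given in the sources. What the authors deposited is a narrowPeak list for each library, without pooling of replicates. Each deposited peak has a score, a fold enrichment (ratio) at its summit and −log10 p-values and q-values, all set by the authors, which were used here only to describe, rank or filter peaks within a list. Read depth is unknown from these lists, and the number and width of peaks can move with it, so no counting interval or floor is given.

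Overlapping peaks of a library were merged, and the covered length of each locus (gene body with 10 kb on each side, chromosomes 1 to 19 and X) was scaled to the mean library total of its fit. An offset of 500 bp was added before the log2, so that changes of thinly covered loci are understated. A locus was tested when the number of libraries covering it reached the size of the smallest group. The test was limma 3.58.1 in R 4.3.3, two-sided, with trended empirical Bayes and a Benjamini-Hochberg threshold of 0.05 over all loci tested, in separate fits for PPARG, for PPARA and for all 14 H3K27ac libraries. Shares of all loci in limma were taken at this threshold only, so counts at an unadjusted p have none beside them. A site was a merged interval of a target's lists, held by a library that overlapped it by at least 1 bp, gained when all cold and no RT lists held it and lost in the reverse case. Starts and promoter sequences came from RefSeq tables of build GRCm38.p6 and cover 20 members, so sites at the others have no distance.

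The members and the other gene lists were chosen with earlier results of these data known. Values per library are given for 10 key genes (Pecam1, Cdh5, Kdr, Flt1, Tek, Erg, Sox17, Nos3, Apln and Plvap) and for the 8 members with the largest change among those past the threshold without overlap. Sites named are up to 6 per class by deposited fold. Genes of other lists are named only when past the threshold, at most 4 per list by size. Vwf, Mmrn2 and Sox18, the TXNIP values of Cdh5, Pecam1 and Emcn, and the sites given by width were named after their values were seen. Mural, brown adipocyte, macrophage, fibroblast and Schwann cell lists held 11, 12, 10, 10 and 7 genes. Alternatives were other scalings, the gene body alone, offsets of 100 bp and more, no filter, peaks with a −log10 q of at least 10, lists of equal length, a replicate block and leaving out each library. The code was tested on simulated data with known changes. Python 3.11.15, numpy 2.4.6, pandas 2.3.3 and matplotlib 3.10.9 were used.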

Additional observations from a re-analysis of the deposited data

Results flagged for a closer look

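The cold response of H3K27ac differed between the WT cohort and the TXNIP KO mice at 22 of 36 members, by a contrast of the 2 responses in the limma fit of 14 libraries, added after the data were seen (adjusted p under 0.05). Of all loci, 5.22% passed with a higher and 5.44% with a lower response in the WT cohort. The cohort and the genotype cannot be told apart here, and peaks of the TXNIP libraries were wider. In the same contrast 2 of 9 macrophage genes had a lower response in the WT cohort and 0 a higher one (median -0.42), and their part in the result was not tested. Against TXNIP WT mice the same contrast passed at 0 members (15 higher and 1 lower at an unadjusted p under 0.05, without a share of all loci at that level). Without scaling 1 of the 22 was left, namely Apln. With 1 library left out 5 members passed without KO cold replicate 1, 8 without KO RT replicate 1, 10 without WT cold replicate 2, 13 without WT RT replicate 1 or 2, and 17 to 26 otherwise.

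Among the receptors, the response in the WT cohort was higher by 0.79 for Kdr, 0.86 for Flt1, 0.88 for Ptprb and 0.60 for Eng on the log2 scale. Among junction genes it was higher by 0.66 for Pecam1, 0.53 for Cdh5, 0.51 for Esam, 0.58 for Cldn5, 0.82 for Emcn and 0.64 for Rasip1. Among transcription factors it was higher by 0.81 for Sox7, 0.55 for Sox18, 0.46 for Erg, 0.44 for Fli1 and 0.59 for Ets1, of which Erg (-0.02) and Fli1 (-0.04) changed sign without scaling. The Notch genes Notch1 and Dll4 were higher by 0.59 and 0.53. Unc5b (1.16), Aplnr (0.67), Adgrl4 (0.69) and S1pr1 (0.52) were higher too. Apln went the other way (-1.53), with its fall in cold larger in the WT cohort.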

How the results depend on the processing

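Counts below are members called in either direction. The PPARG count (23) was 8 without scaling and 11 to 18 with 1 library left out. The members' PPARG median stayed 0.42 to 0.69 above that of all loci in the 15 alternatives. Changes that reversed for PPARG were Nos3 (-0.28 without scaling, -0.033 with median ratio scaling, -0.14 in the gene body alone, and -0.078 to 0.18 with 1 library left out), Plvap (-0.14 without scaling and in the gene body alone) and Sox18 (-0.041 in the gene body alone). The PPARA count (3) was 11 without scaling, 8 with stricter peaks and 0 to 5 with 1 library left out. The H3K27ac WT count (13) was 4 without scaling, 8 in the gene body alone, 7 with stricter peaks, 8 with the cohort fitted alone and 5 to 17 with 1 library left out. There Nos3 reversed in the gene body alone (0.016) and with some libraries left out (-0.090 to 0.0074), and Plvap with lists of equal length (-0.071). The TXNIP WT count (2) was 1 in the gene body alone and 0 to 2 with 1 library left out. The TXNIP KO count (14) was 3 without scaling, 5 with stricter peaks, 4 with lists of equal length, 6 with the cohort alone and 2 to 9 with 1 library left out. Without scaling, Pecam1 (0.0065), Cldn5 (0.0014), Fli1 (0.11), Notch1 (0.032), Dll4 (0.091), Nos3 (0.026) and Egfl7 (0.035) reversed in KO. The count of KO against WT in cold (1) was 0 without scaling or with the cohort alone, 2 with median ratio scaling, the gene body alone, an offset of 100 bp or no filter, and 0 to 3 with 1 library left out. The difference of the WT cohort from KO (22) was 1 without scaling, 9 with stricter peaks, 12 with lists of equal length and 5 to 26 with 1 library left out, and Erg (-0.020) and Fli1 (-0.038) reversed without scaling. That from TXNIP WT (0) was 0 to 4 with 1 library left out. KO against WT at RT, and the KO minus WT response, were 0 in every fit with 1 library left out. The ERR1 count past 2-fold (2) was 8 without scaling, 5 in the gene body alone, 11 with an offset of 100 bp and 1 with lists of equal length. PPARG sites gained (10) were 22 with lists of equal length and 11 to 21 with 1 library left out, and those lost (5) were 5 to 9. PPARA sites gained (0) were 1 with stricter peaks, 4 with equal lengths and 0 to 2 with 1 library left out, and those lost (15) were 4 with equal lengths and 15 to 26. H3K27ac regions gained in the WT cohort (14) were 6 with stricter peaks and 17 to 31 with 1 library left out, and those lost (1) were 0 with equal lengths and 1 to 3. With stricter peaks the mean number of members with a peak was 2.0 for PGC1A (from 3.0) and 13.7 for CEBPA (from 17.7), and the PGC1A mean without replicate 3, whose genotype label differed, was also 3.0. For named genes, 263 of 374 PPARG values and 214 of 288 H3K27ac WT values kept their direction and side of the threshold. Fewer libraries leave fewer residual degrees of freedom, and beyond that the cause of these shifts was not tested. The sample titles do not say whether replicate numbers pair samples. Deviations of same-numbered libraries correlated by -0.06 to 0.06 for PPARG, -0.05 and -0.02 for PPARA and 0.07 to 0.12 for H3K27ac WT. Those of differently numbered libraries correlated by -0.09 to 0.10 for PPARG and -0.17 to 0.08 for H3K27ac WT. Same-numbered values were -0.15 for TXNIP WT and -0.22 for TXNIP KO. With 2 libraries in a group, as there and for PPARA at RT, deviations mirror each other and cannot show a pairing. With a replicate block the counts were 18 for PPARG, 4 for PPARA, 11 for H3K27ac WT, and 0 for TXNIP WT, TXNIP KO and KO against WT in cold. With the pairing crossed, added after seeing the data, they were 0 for TXNIP WT, 6 for TXNIP KO and 0 for KO against WT in cold.

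Peak lists give no depth, so a short list cannot be told from weak binding, and loci near 0 kb such as Flt4, Adcy4, Apln and Vwf rest on 1 or a few peaks.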
